A study of Mus musculus with 20 samples.

Results

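The 10 genes described here are the inducible feedback brakes of MAP kinase signalling named Dusp1, Dusp2, Dusp4, Dusp5, Dusp6, Dusp10, Dusp16, Spry1, Spry2 and Spred1. They were chosen by symbol as members of the dual-specificity phosphatase and Sprouty families, with earlier results of these data known. All 10 were found among the 23090 genes of each library. RNA was measured in 20 libraries of myeloid cells sorted from tumours, 5 in each of 4 groups. The groups are gMDSC (granulocytic myeloid-derived suppressor cells) from CBPi mice, gMDSC from vehicle mice, mMDSC (the monocytic counterpart) from CBPi mice and mMDSC from vehicle mice. CBPi stands for GNE-781 (CBPi-781 in the labels), which blocks the bromodomains, the acetyl-lysine readers, of CBP and EP300. It was given at 25 mg/kg BID by oral gavage for 7 days, and the vehicle was MCT on the same schedule. All mice were female SCID.beige animals of 6 to 8 weeks, which lack T and B cells and functional NK cells, and all carried a subcutaneous tumour. Tumours came from human breast cancer cells (MDA.MB.231-X1.1) or mouse colon carcinoma cells (CT26); the labels do not tie a library to a line, so line and treatment cannot be told apart where lines were unequally shared. Both populations were sorted as CD45+, CD11b+, Ly6C+ and F4/80- cells from digested tumours, gMDSC as Ly6G+ and mMDSC as Ly6G-.

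MAP kinases carry signals from growth factor, cytokine and pathogen receptors through RAS, RAF and MEK to ERK, and through parallel arms to JNK and p38. Dual-specificity phosphatases switch these kinases off by removing the phosphates of their activation loop, and most of them are themselves transcribed when the pathway is active. Sprouty proteins block the receptor end of the cascade, and Spred1 brings the RAS inhibitor neurofibromin to the membrane. In myeloid cells DUSP1 is known as a brake on inflammatory cytokine production, and its gene is an immediate early gene.

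Library totals were 19.74 to 22.43 mega-counts (M) in CBPi gMDSC, 12.37 to 23.27 M in vehicle gMDSC, 19.49 to 26.64 M in CBPi mMDSC and 13.51 to 23.23 M in vehicle mMDSC. In vehicle gMDSC only replicate 5 reached 23.27 M, and replicates 1 to 4 had 12.46, 12.37, 14.1 and 13.65 M. Levels below are counts per mega-count (CPM) after TMM scaling over the 20 libraries, and a gene passed the test when its adjusted p from edgeR's quasi-likelihood test, taken over all genes tested, was under 0.05. The sort was checked against marker genes. The neutrophil marker Cxcr2 ran from 663 to 1063 CPM in CBPi gMDSC and from 964 to 1832 CPM in vehicle gMDSC, against 0.653 to 3.4 CPM in CBPi mMDSC and 0.232 to 2.71 CPM in vehicle mMDSC. Ly6g RNA was low in all groups, with a median of 0.758 CPM in CBPi gMDSC and 5.32 CPM in vehicle gMDSC and of 0 and 0.148 CPM in CBPi and vehicle mMDSC. Adgre1, which encodes the F4/80 antigen used to gate cells out, was present in every group, between 438 and 1533 CPM. Summed over 8 macrophage markers, the level was 15970 to 31676 CPM in CBPi gMDSC and 33163 to 75678 CPM in vehicle gMDSC, ranges that did not overlap, and 18990 to 23808 CPM in CBPi mMDSC and 22282 to 32126 CPM in vehicle mMDSC. The 10 neutrophil markers summed to 7260 to 13801 CPM in CBPi gMDSC and to 8887 to 34535 CPM in vehicle gMDSC, and to 206 to 331 CPM in CBPi mMDSC and 339 to 394 CPM in vehicle mMDSC. The 8 monocyte markers summed to 2350 to 3181 CPM in CBPi gMDSC and 2771 to 4364 CPM in vehicle gMDSC, and to 5264 to 6242 CPM in CBPi mMDSC and 6567 to 7803 CPM in vehicle mMDSC. In mMDSC the neutrophil and monocyte sums did not overlap between treatments. Ccr2, a monocyte chemokine receptor gene, and Ly6c2, which encodes a gated antigen, fell there with CBPi by 1.73 and 1.24 on the log2 scale (edgeR adjusted p = 7.84e-06 and 0.00122). In gMDSC they fell by 2.64 and 1.41 (edgeR adjusted p = 0.000195 and 0.0141), while the monocyte marker F13a1 rose by 3.36 (edgeR adjusted p = 0.00203). Of the 8 monocyte markers, 3 fell and 0 rose in mMDSC, and 3 fell and 1 rose in gMDSC. In gMDSC the mast cell, basophil and eosinophil sum (6 genes) was 16.2 to 23.9 CPM with CBPi and 53.8 to 85 CPM with vehicle. The epithelium sum (5 genes) was 6.27 to 11.6 CPM with CBPi and 23.9 to 54.2 CPM with vehicle. In mMDSC both sums overlapped between treatments. Siglecf of the first list and Krt18 of the second fell in gMDSC by 1.97 and 4.44 on the log2 scale (edgeR adjusted p = 9.37e-05 and 0.000542), and 0 genes of either list rose. Over all genes tested, 8.56% changed in mMDSC and 9.71% in gMDSC. The part of these shifts in the results below was not tested, and in bulk RNA fewer cells of a type and less RNA per cell cannot be told apart.

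The promoters of 9 of the 10 genes were matched in RefSeq (GRCm38.p6), as the 250 bases before the start site. The 3 that held a cyclic AMP response element or its core are shown, because CBP was named as the partner of the factor CREB, which binds that element. Capitals mark the element TGACGTCA and the core TGACG on either strand and, in Dusp5, also the 2 adjacent CArG boxes, the letters bound by serum response factor. The windows are chr17:26508473-26508722 on the minus strand for Dusp1, chr19:53528895-53529144 on the plus strand for Dusp5 and chr6:134792629-134792878 on the minus strand for Dusp16, each written from its far end to the start site. The Dusp1 and Dusp5 windows abut the gene's outer end, whereas the start site that the table gives for Dusp16 lies inside the gene, which ends at 134807063 on its upstream side.
Dusp1: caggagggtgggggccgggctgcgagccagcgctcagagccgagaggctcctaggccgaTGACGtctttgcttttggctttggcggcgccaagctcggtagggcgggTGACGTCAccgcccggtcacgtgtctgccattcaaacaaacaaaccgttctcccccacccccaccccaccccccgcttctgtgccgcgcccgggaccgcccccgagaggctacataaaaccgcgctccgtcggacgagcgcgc
Dusp5: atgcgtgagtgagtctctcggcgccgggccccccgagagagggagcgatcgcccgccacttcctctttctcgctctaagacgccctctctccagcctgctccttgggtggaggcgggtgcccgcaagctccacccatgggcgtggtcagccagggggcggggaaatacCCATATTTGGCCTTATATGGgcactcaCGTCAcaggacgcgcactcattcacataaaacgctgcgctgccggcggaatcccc
Dusp16: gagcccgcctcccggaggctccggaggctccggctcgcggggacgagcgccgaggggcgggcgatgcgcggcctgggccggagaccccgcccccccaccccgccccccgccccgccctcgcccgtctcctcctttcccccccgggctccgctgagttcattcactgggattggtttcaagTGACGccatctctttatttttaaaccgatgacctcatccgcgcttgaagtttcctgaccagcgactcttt
The whole element was found in 1 of 9 promoters, that of Dusp1, with its first base at -143 from the start site, and in 1.62% of 27025 mouse promoters of the same length. The core, which the whole element contains on both strands, was found in 3 of 9 and in 17.9% of all. The AP-1 letters TGANTCA were found in 0 of 9 and in 6.87% of all. The CArG box was found in 1 of 9, at -82 and -72 of Dusp5, and in 1.4% of all. These are matches of letters and not measured binding sites.

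**Figure D1:**
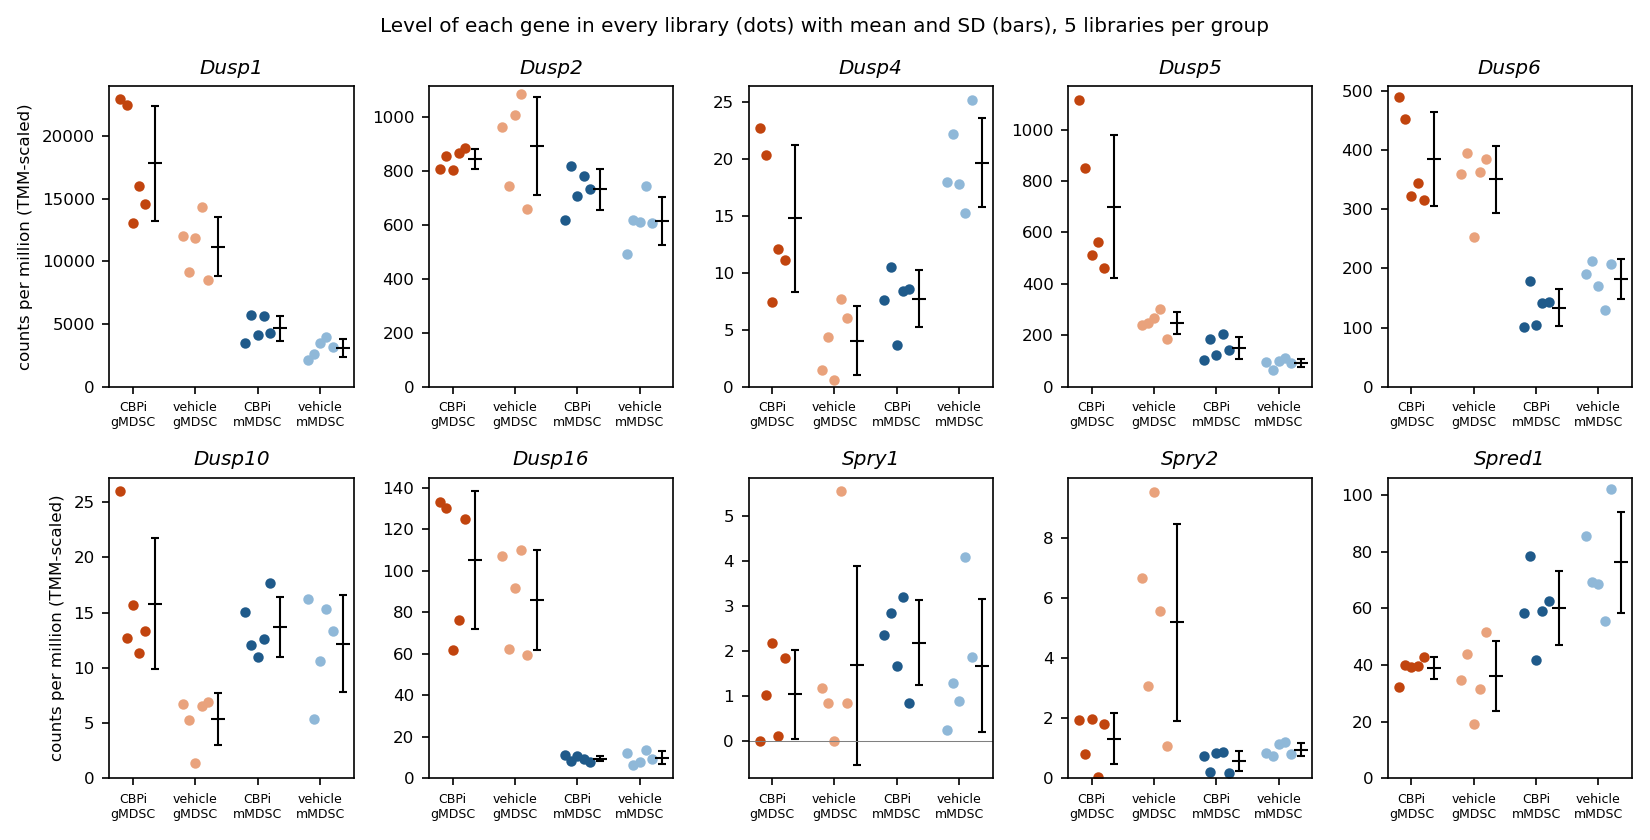
Level of each of the 10 genes in CPM (vertical axes, each with its own scale) in CBPi gMDSC, vehicle gMDSC, CBPi mMDSC and vehicle mMDSC. Dots are libraries and bars are the mean and SD of 5 libraries; Dusp5 and Dusp10 lie higher in CBPi gMDSC than in vehicle gMDSC without overlap, and Dusp4 lies lower in CBPi mMDSC than in vehicle mMDSC without overlap.

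The 10 genes were expressed at very different levels, and Dusp1 exceeded the other 9 together in each group. Per kilobase of deposited gene width, which is coding length for most genes, the 10 levels summed to 18054 ± 4449 CPM per kb in CBPi gMDSC and 11650 ± 2353 CPM per kb in vehicle gMDSC (SD, n = 5 each). The sum was 5303 ± 1045 CPM per kb in CBPi mMDSC and 3769 ± 702 CPM per kb in vehicle mMDSC (SD, n = 5 each). Dusp1 gave 89.1% and 86.7% of the sum in CBPi and vehicle gMDSC and 79.5% and 73.9% in CBPi and vehicle mMDSC. Dusp2 was next in every group, with 5.12% and 7.99% in CBPi and vehicle gMDSC and 14.6% and 17.2% in CBPi and vehicle mMDSC. Spry1 and Spry2 each gave under 0.05% of the sum in every group, as did Dusp4 and Dusp10 in vehicle gMDSC, and the Spry1 and Spry2 counts were as low as 0 and 1 in single libraries. The lowest Dusp4 and Dusp10 counts were 6 and 15, both in vehicle gMDSC 3.

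With CBPi, 2 of the 10 genes changed in gMDSC, Dusp5 and Dusp10, and both rose, against 9.71% of the 11694 genes tested that changed in either direction (4.18% rose and 5.52% fell). In mMDSC 2 of the 10 changed, Dusp5, which rose, and Dusp4, which fell, against 8.56% of the 11912 genes tested that changed, 3.02% that rose and 5.54% that fell. The median log2 fold change of the 10 genes was 0.23 in gMDSC, against 0 over all genes tested, and 0.03 in mMDSC, against 0.01 over all genes tested. The response differed between the populations for 1 of the 10, Dusp4, with the higher value in gMDSC, and for 0.725% of the 12688 genes tested (0.497% higher and 0.229% lower in gMDSC). All 10 genes passed the filter on low counts in each of these comparisons.

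Dusp5, a nuclear phosphatase that acts on ERK, was the gene with the clearest response. It had 1117, 850, 511, 563 and 460 CPM in CBPi gMDSC 6 to 10, against 239, 249, 267, 302 and 184 CPM in vehicle gMDSC 1 to 5. Every CBPi library lay above every vehicle library, and libraries 6 and 7 were the highest. Dusp5 rose by 1.51 ± 0.25 on the log2 scale (SE; 95% interval 0.97 to 2.05; edgeR adjusted p = 0.00277). In this comparison the groups did not overlap, with CBPi above vehicle, for 5.32% of genes.

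In mMDSC, Dusp5 had 104, 185, 122, 204 and 145 CPM in CBPi libraries 6 to 10, against 96.2, 67.1, 100, 111 and 92.8 CPM in vehicle libraries 1 to 5. Only CBPi mMDSC 6, at 104 CPM, fell within the vehicle range. The log2 fold change was 0.68 ± 0.20 (SE; edgeR adjusted p = 0.0489), and the call was lost on leaving out CBPi mMDSC 7, 9 or 10 or vehicle mMDSC 1, 2, 3 or 5, with adjusted p between 0.0215 and 0.115 over the 10 libraries left out in turn. It was also lost with no filter on low counts (adjusted p = 0.0528) and in 1 fit over all 4 groups (adjusted p = 0.0952). The response was larger in gMDSC by 0.78 ± 0.33 on the log2 scale, a difference that did not pass the test (SE; 95% interval 0.11 to 1.46; edgeR adjusted p = 0.35). Dusp5 (GeneID 240672) lies at chr19:53529145-53541809, and 338 of its coding bases are shared with the antisense gene AC137853.2; whether the counting used strand is not given in the sources used here, so reads of the pair cannot be told apart.

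Dusp4, a nuclear phosphatase of ERK and JNK (GeneID 319520, chr8:34807610-34819894), had log2 fold changes of opposite sign in the populations. Only the change in mMDSC passed the test. In mMDSC it had 7.59, 10.5, 3.71, 8.42 and 8.56 CPM in CBPi libraries 6 to 10, against 18, 22.2, 17.8, 15.3 and 25.2 CPM in vehicle libraries 1 to 5. Every CBPi library was below every vehicle library, as for 5.41% of genes in this comparison, and the gene fell by 1.36 ± 0.26 on the log2 scale (SE; 95% interval -1.91 to -0.80; edgeR adjusted p = 0.00561). The call held on leaving out each library in turn (adjusted p 0.00405 to 0.0176) and was lost in 1 fit over all 4 groups (adjusted p = 0.0945).

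In gMDSC, Dusp4 had 22.7, 20.4, 7.48, 12.1 and 11.1 CPM in CBPi libraries 6 to 10, against 1.47, 4.41, 0.56, 7.72 and 6.06 CPM in vehicle libraries 1 to 5. The groups overlapped only at CBPi gMDSC 8 and vehicle gMDSC 4. The log2 fold change of 1.87 ± 0.58 missed the threshold (SE; edgeR adjusted p = 0.0601); it passed without vehicle gMDSC 3 (0.0411) or vehicle gMDSC 4 (adjusted p = 0.048), with DESeq2 (adjusted p = 0.0092) and in 1 fit over all 4 groups (adjusted p = 0.00982). The difference of the responses, gMDSC minus mMDSC, was 3.19 ± 0.65 on the log2 scale (SE; 95% interval 1.84 to 4.54; edgeR adjusted p = 0.0247). That difference rested in part on 2 libraries: without CBPi gMDSC 7 it was 3.05 (adjusted p = 0.0578), and without CBPi gMDSC 6 and 7 it was 2.66 (adjusted p = 0.143).

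Dusp10, a phosphatase of JNK and p38 (GeneID 63953, chr1:184034381-184075636), rose in gMDSC. It had 26, 12.7, 15.7, 11.3 and 13.3 CPM in CBPi gMDSC 6 to 10, against 6.77, 5.24, 1.4, 6.51 and 6.94 CPM in vehicle gMDSC 1 to 5. The groups did not overlap; CBPi gMDSC 6 was highest and vehicle gMDSC 3 lowest. On the log2 scale the change was 1.57 ± 0.41 (SE; 95% interval 0.70 to 2.45; edgeR adjusted p = 0.0292). The call was lost without CBPi gMDSC 6, 7 or 8 or without vehicle gMDSC 1 or 2 (adjusted p up to 0.088), and without both CBPi gMDSC 6 and 7 (log2 fold change 1.34, adjusted p = 0.181). In mMDSC it averaged 13.7 ± 2.72 CPM with CBPi and 12.2 ± 4.36 CPM with vehicle (SD, n = 5 each), a log2 fold change of 0.15 with a 95% interval of -0.45 to 0.75. The difference of the responses was 1.37 ± 0.50 (SE; edgeR adjusted p = 0.263).

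Dusp1 (GeneID 19252, chr17:26505591-26508472), the nuclear phosphatase that restrains p38 and JNK, was the most abundant of the 10. In gMDSC it had 22934, 22425, 13080, 16009 and 14567 CPM in CBPi libraries 6 to 10, against 12012, 9114, 11845, 14342 and 8521 CPM in vehicle libraries 1 to 5. CBPi gMDSC 6 and 7 were far above the rest, and CBPi gMDSC 8 lay below vehicle gMDSC 4. The log2 fold change of 0.69 ± 0.21 did not pass the test (SE; edgeR adjusted p = 0.0554). In mMDSC the levels were 3479, 5738, 4168, 5679 and 4263 CPM in CBPi libraries 6 to 10, against 2164, 2650, 3526, 3943 and 3183 CPM in vehicle libraries 1 to 5. Only CBPi mMDSC 6 lay within the vehicle range, and the log2 fold change of 0.57 ± 0.18 did not pass the test (SE; edgeR adjusted p = 0.069). DESeq2 called Dusp1 in both populations (adjusted p = 0.0118 in gMDSC and 0.0235 in mMDSC). With edgeR it passed in gMDSC without CBPi gMDSC 8 (adjusted p = 0.0483) and in 1 fit over all 4 groups (adjusted p = 0.0309), and in mMDSC without CBPi mMDSC 6 (adjusted p = 0.0373) or vehicle mMDSC 4 (adjusted p = 0.0295). The responses differed by 0.07 on the log2 scale, with a 95% interval of -0.52 to 0.66.

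**Figure D2:**
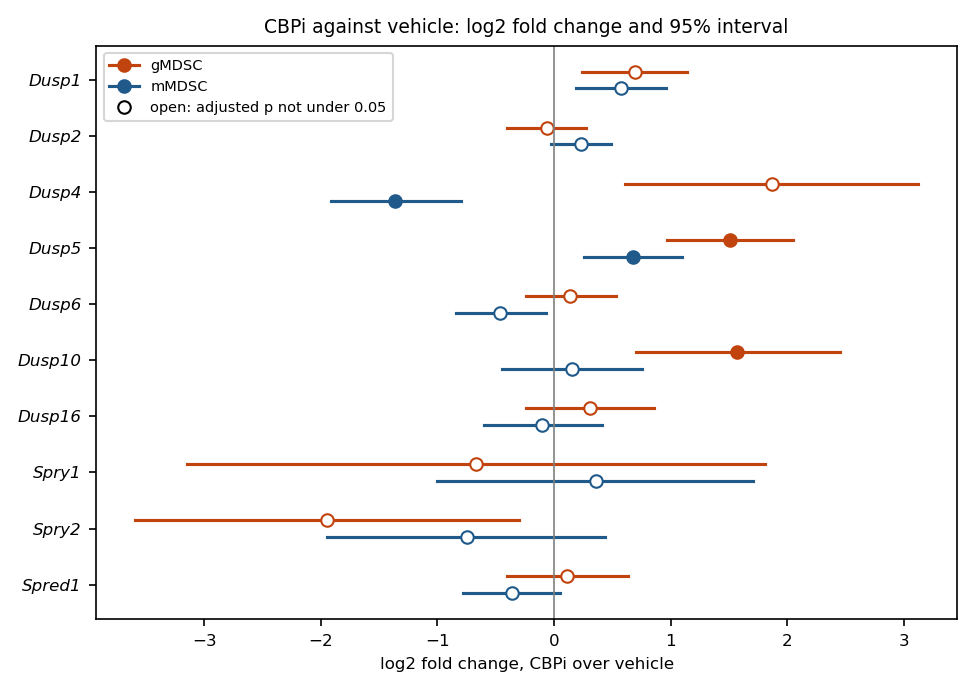
Log2 fold change of each gene, CBPi over vehicle, in gMDSC and in mMDSC (horizontal axis), with 95% intervals from edgeR. Filled points passed the test; the points for Dusp4 lie on opposite sides of 0, at 1.87 in gMDSC and -1.36 in mMDSC.

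The remaining genes had no call with CBPi. Dusp2, a nuclear phosphatase of immune cells, averaged 843 ± 36.8 CPM in CBPi gMDSC and 891 ± 181 CPM in vehicle gMDSC (SD, n = 5 each). Its log2 fold change there, -0.06, had the 95% interval -0.40 to 0.27. In mMDSC it averaged 731 ± 76.2 CPM with CBPi and 614 ± 90.1 CPM with vehicle (SD, n = 5 each), a log2 fold change of 0.23 with the 95% interval -0.03 to 0.49 (edgeR adjusted p = 0.286). Dusp6, the cytoplasmic phosphatase of ERK, averaged 385 ± 80.2 CPM in CBPi gMDSC and 351 ± 56.7 CPM in vehicle gMDSC, and 134 ± 32 CPM in CBPi mMDSC and 182 ± 33.7 CPM in vehicle mMDSC (SD, n = 5 each). Its log2 fold changes were 0.14 in gMDSC (95% interval -0.24 to 0.53) and -0.46 in mMDSC (95% interval -0.84 to -0.07; edgeR adjusted p = 0.146). Dusp16, a phosphatase of JNK and p38, had log2 fold changes of 0.31 in gMDSC (95% interval -0.24 to 0.86) and -0.10 in mMDSC (95% interval -0.60 to 0.41).

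Spry1 and Spry2 stayed under 10 CPM in every library. Spry2 had 1.94, 0.809, 1.97, 0.0535 and 1.79 CPM in CBPi gMDSC 6 to 10, against 6.67, 3.08, 9.52, 5.55 and 1.06 CPM in vehicle gMDSC 1 to 5. All but vehicle gMDSC 5 lay above every CBPi library; the log2 fold change was -1.95 ± 0.76 and did not pass the test (SE; edgeR adjusted p = 0.126), and it passed in 1 fit over all 4 groups (adjusted p = 0.0486). Spry1 had 0 counts in CBPi gMDSC 6 and in vehicle gMDSC 3, where 3 counts would be 0.194 and 0.28 CPM, and its highest level was 5.55 CPM, in vehicle gMDSC 4. Its 95% interval for the CBPi response in gMDSC ran from -3.15 to 1.81, which leaves a change of several fold either way undetermined. Spred1 averaged 38.8 ± 3.89 CPM in CBPi gMDSC and 36.2 ± 12.3 CPM in vehicle gMDSC, and 60 ± 13.1 CPM in CBPi mMDSC and 76.2 ± 17.9 CPM in vehicle mMDSC (SD, n = 5 each). Its log2 fold changes were 0.11 in gMDSC (95% interval -0.40 to 0.63) and -0.36 in mMDSC (95% interval -0.78 to 0.05).

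Genes that respond to tissue digestion moved in part with treatment. The summed level of 10 such genes (Fos, Jun, Junb, Fosb, Atf3, Ier2, Hspa1a, Hspa1b, Dnajb1 and Egr1) was 52253, 40844, 26302, 25887 and 24866 CPM in CBPi gMDSC 6 to 10, against 21318, 19349, 27481, 25370 and 20433 CPM in vehicle gMDSC 1 to 5. It was 10132 to 14480 CPM in CBPi mMDSC, against 6694 to 9661 CPM in vehicle mMDSC. Of the 10, 6 rose with CBPi in each population, against 4.18% of all genes tested in gMDSC and 3.02% in mMDSC. Only Jun, Dnajb1 and Egr1 rose in both. Hspa1a, Hspa1b and Atf3 passed only in gMDSC, and Ier2, Fosb and Junb only in mMDSC. Fos passed in neither, with log2 fold changes of 0.17 in gMDSC and 0.10 in mMDSC (edgeR adjusted p = 0.614 and 0.749). Egr1 was the most abundant of the 10 in CBPi gMDSC, at a mean of 9675 CPM against 4541 CPM in vehicle gMDSC. The log2 fold changes of Hspa1a and Hspa1b were 4.07 and 4.03 in gMDSC and 0.07 and 0.05 in mMDSC. CBPi gMDSC 6 and 7, the highest in this sum, were also the highest gMDSC libraries in Dusp1, Dusp4, Dusp5, Dusp6 and Dusp16; the part of this in the differences was not tested. Without these 2 libraries, a choice made after seeing the data, the log2 fold change in gMDSC was 1.06 for Dusp5 (edgeR adjusted p = 0.0119) and 0.40 for Dusp1 (adjusted p = 0.32).

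**Figure D3:**
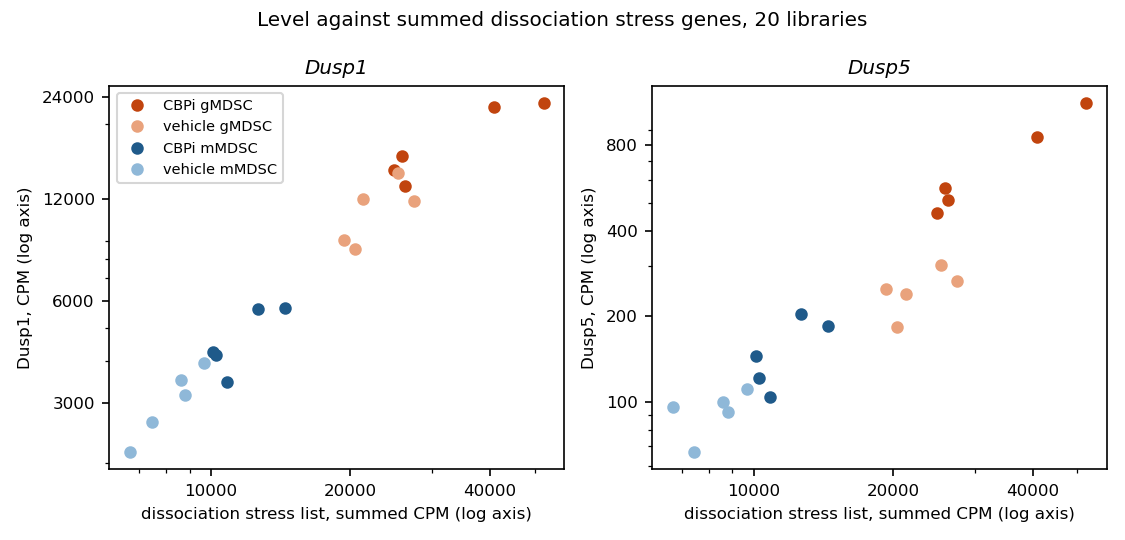
Level of Dusp1 (left) and Dusp5 (right) in CPM against the summed level of 10 dissociation stress genes in CPM, on log axes, 1 dot per library for 20 libraries. The 2 libraries with the highest sums, CBPi gMDSC 6 and 7 at 52253 and 40844 CPM, also have the highest Dusp1 (22934 and 22425 CPM) and Dusp5 (1117 and 850 CPM).

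In CBPi mice 6 of the 10 genes differed between gMDSC and mMDSC, 5 higher and 1 lower in gMDSC, against 39.2% of the 11895 genes tested (20.1% higher and 19.1% lower). In vehicle mice 8 of the 10 differed, 6 higher and 2 lower in gMDSC, against 21.7% of the 11576 genes tested (13.6% higher and 8.08% lower). The median log2 fold change of the 10 genes was 1.12 in CBPi mice, against -0.05 over all genes tested, and 0.78 in vehicle mice, against -0.06 over all genes tested. The gMDSC and mMDSC groups did not overlap for 4 of the 10 genes in CBPi mice and for 30.2% of all genes tested, and for 6 of the 10 in vehicle mice and 20.2% of all genes tested. The dissociation stress sum was also higher in every gMDSC library than in every mMDSC library, and its part in these differences was not tested. Because the 10 genes were chosen with earlier results of these data known, their counts and medians are no test of the families.

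Dusp16 (GeneID 70686, chr6:134715468-134807063) had the largest difference of the 10 in both treatments. It had 133, 130, 61.8, 76.3 and 125 CPM in CBPi gMDSC 6 to 10, against 11.2, 8.36, 10.7, 9.33 and 8.06 CPM in CBPi mMDSC 6 to 10. It had 107, 62.1, 91.5, 110 and 59.4 CPM in vehicle gMDSC 1 to 5, against 12.3, 6.52, 8.01, 13.8 and 9.48 CPM in vehicle mMDSC 1 to 5. The lowest gMDSC library was above the highest mMDSC library in each treatment. On the log2 scale gMDSC exceeded mMDSC by 3.53 ± 0.23 in CBPi mice (SE; edgeR adjusted p = 1.65e-07) and 3.13 ± 0.27 in vehicle mice (SE; edgeR adjusted p = 3.98e-06).

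Dusp1, Dusp5 and Dusp6 were higher in gMDSC in both treatments, without overlap. Dusp1 averaged 17803 ± 4574 CPM in CBPi gMDSC and 4665 ± 999 CPM in CBPi mMDSC (SD, n = 5 each), a log2 fold change of 1.99 ± 0.19 (SE; edgeR adjusted p = 4.28e-06). It averaged 11167 ± 2370 CPM in vehicle gMDSC and 3093 ± 703 CPM in vehicle mMDSC (SD, n = 5 each), a log2 fold change of 1.88 ± 0.20 (SE; edgeR adjusted p = 2.59e-05). The other 2 genes differed by less than Dusp16 in both treatments. For Dusp5 the log2 fold change was 2.26 ± 0.26 in CBPi mice and 1.44 ± 0.18 in vehicle mice (SE; edgeR adjusted p = 2.06e-05 and 7.8e-05). For Dusp6 (GeneID 67603, chr10:99263231-99267489) it was 1.58 ± 0.18 in CBPi mice and 0.99 ± 0.17 in vehicle mice (SE; edgeR adjusted p = 2.14e-05 and 0.000897).

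Dusp4 was called between the populations in both treatments, with opposite signs. In CBPi mice it averaged 14.8 ± 6.49 CPM in gMDSC and 7.76 ± 2.51 CPM in mMDSC (SD, n = 5 each), a log2 fold change of 0.98 ± 0.33 (SE; edgeR adjusted p = 0.0302). In vehicle mice it averaged 4.04 ± 3.02 CPM in gMDSC and 19.7 ± 3.93 CPM in mMDSC (SD, n = 5 each), a log2 fold change of -2.23 ± 0.54 (SE; edgeR adjusted p = 0.00968). The CBPi groups overlapped, with CBPi gMDSC 8 below 4 of the CBPi mMDSC libraries, and that call was lost without any 1 of CBPi gMDSC 6, 7 or any 1 of CBPi mMDSC 6, 8, 9, in 1 fit over all 4 groups (adjusted p = 0.12), and without both CBPi gMDSC 6 and 7 (log2 fold change 0.45, adjusted p = 0.342). The vehicle groups did not overlap. The difference of the responses given above tests whether these 2 values are unequal, not whether the sign differs.

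Spred1 (GeneID 114715, chr2:117121071-117182279) was lower in gMDSC. The log2 fold change was -0.56 ± 0.16 in CBPi mice (SE; edgeR adjusted p = 0.0137) and -1.03 ± 0.25 in vehicle mice (SE; edgeR adjusted p = 0.0113), and without CBPi gMDSC 6 and 7 the difference in CBPi mice was -0.51 (adjusted p = 0.066). Only the vehicle groups were free of overlap, at 19.3 to 51.7 CPM in gMDSC and 55.6 to 102 CPM in mMDSC. Spry2 (GeneID 24064, chr14:105891947-105896819) was higher in vehicle gMDSC than in vehicle mMDSC, by 2.46 ± 0.57 (SE; edgeR adjusted p = 0.0075), at 1.06 to 9.52 CPM in gMDSC and 0.742 to 1.22 CPM in mMDSC. In CBPi mice its difference was 1.26 ± 0.76 (SE; edgeR adjusted p = 0.216).

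Dusp2 (GeneID 13537, chr2:127336159-127338377) differed least among the abundant members. It was 801 to 885 CPM in CBPi gMDSC and 619 to 819 CPM in CBPi mMDSC, a log2 fold change of 0.27 ± 0.11 (SE; edgeR adjusted p = 0.0648), which passed without CBPi mMDSC 7 (adjusted p = 0.0495) and with RLE scaling (adjusted p = 0.0404) or DESeq2 (adjusted p = 0.0076). It was 659 to 1084 CPM in vehicle gMDSC and 491 to 745 CPM in vehicle mMDSC, 0.57 ± 0.17 (SE; edgeR adjusted p = 0.0297), and this call was lost without vehicle gMDSC 1 or 4 or vehicle mMDSC 1, 2, 3 or 5 (adjusted p up to 0.0803). Dusp10 did not pass in either treatment, with log2 fold changes of 0.26 in CBPi mice and -1.14 in vehicle mice (edgeR adjusted p = 0.416 and 0.0842). In vehicle mice Dusp10 passed without vehicle mMDSC 2 (adjusted p = 0.0494), with DESeq2 (adjusted p = 0.0455) and in 1 fit over all 4 groups (adjusted p = 0.0194). Spry1 (GeneID 24063, chr3:37639947-37644599) did not pass either, with 95% intervals of -2.82 to 0.82 in CBPi mice and -2.10 to 2.14 in vehicle mice.

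**Figure D4:**
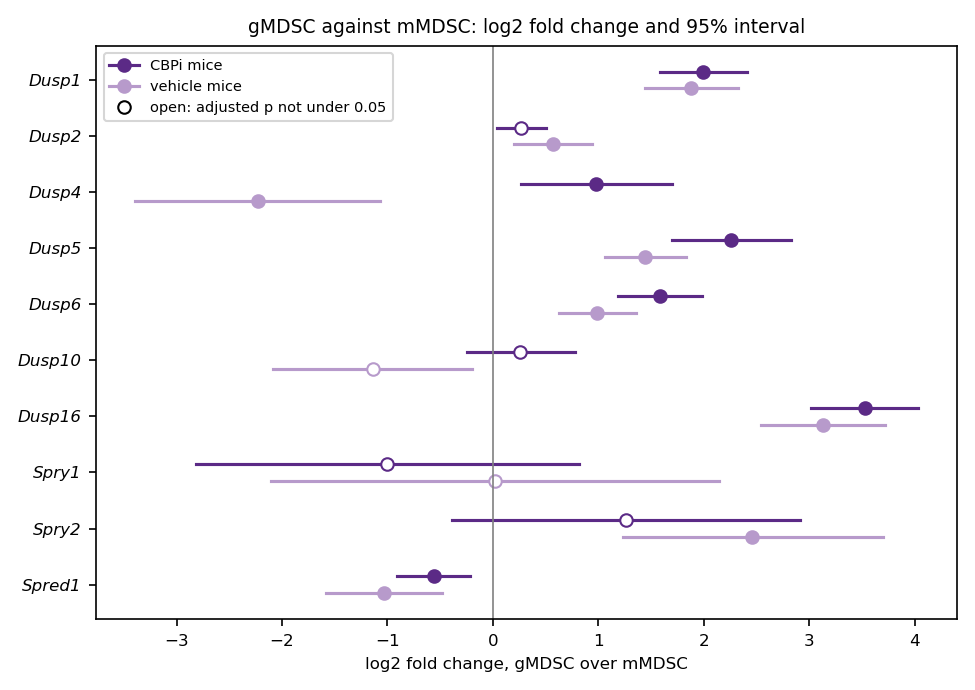
Log2 fold change of each gene, gMDSC over mMDSC, in CBPi mice and in vehicle mice (horizontal axis), with 95% intervals from edgeR; filled points passed the test. Dusp16 lies farthest to the right, at 3.53 and 3.13, and Dusp4 lies at 0.98 in CBPi mice and at -2.23 in vehicle mice.

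Within groups the members did not vary as a block. After subtraction of group means, the Pearson r of log2 CPM over the 20 libraries was 0.82 between Dusp1 and Dusp5, 0.74 between Dusp1 and Dusp2, 0.69 between Dusp4 and Dusp6 and 0.62 between Dusp4 and Spred1. The lowest was -0.55, between Spry2 and Spred1. These are descriptions, and the genes of a library share its sort, handling and depth. Of 7799 genes with at least 10 CPM on average, the most like Dusp1 were Osm (r = 0.92), a cytokine gene, and Plk3 (r = 0.90), a stress kinase gene. Plk3 (r = 0.90) and Vegfa (r = 0.88), which encodes an angiogenic growth factor, were the most like Dusp5. For Dusp4 they were Homer1 (r = 0.95) and Tle4 (r = 0.90), for Dusp6 Arrdc3 (r = 0.95) and P4hb (r = 0.93), and for Spred1 Siglec1 (r = 0.95), a macrophage lectin gene, and Tgfbi (r = 0.94). For Dusp2 they were Clec4e (r = 0.84) and Areg (r = 0.83), for Dusp10 Pml and Pbrm1 (r = 0.85 each), and for Dusp16 Birc6 (r = 0.80) and Ell2 (r = 0.79). For Spry1 the most like gene was Aqr (r = 0.79) and for Spry2 Zfp131 (r = 0.80), and these 2 members had counts as low as 0 and 1 in single libraries. All these r values were picked as the highest among 7799 genes and were not tested, so the part of chance in them is not known. Taken within the 10 gMDSC and the 10 mMDSC libraries, some of these values were unequal: 0.97 and 0.21 for Spry1 with Aqr, 0.96 and 0.57 for Dusp10 with Pbrm1, 0.94 and 0.66 for Dusp10 with Pml, and 0.98 and 0.78 for Dusp4 with Homer1. Others were close, at 0.92 and 0.91 for Dusp1 with Osm and 0.95 in both for Dusp6 with Arrdc3.

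**Figure D5:**
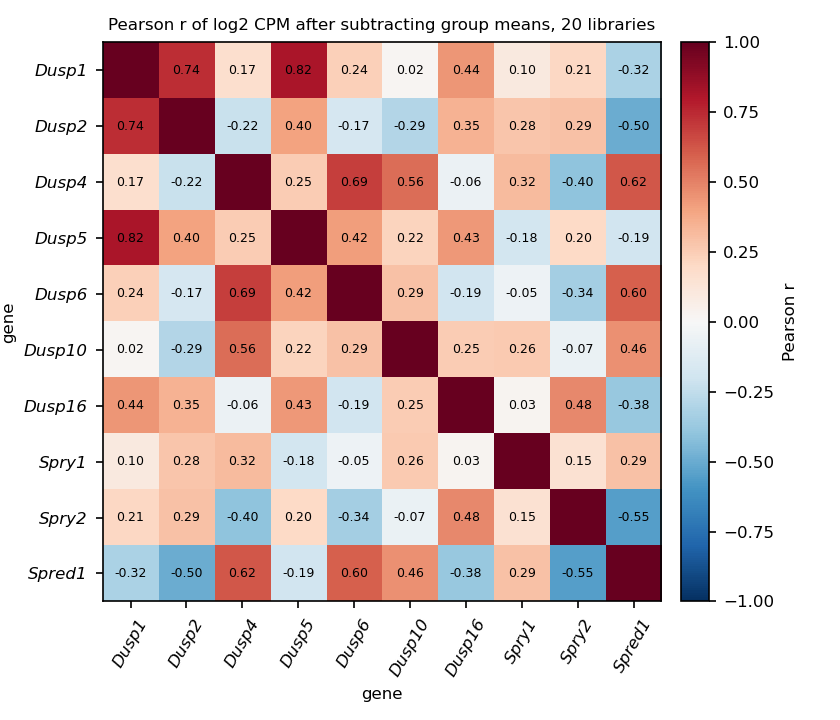
Pearson r of log2 CPM between each pair of the 10 genes over 20 libraries after subtracting group means (rows and columns are genes, colour from -1 to 1). Dusp1 and Dusp5 have the highest value, 0.82, and Spry2 and Spred1 the lowest, -0.55.

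The rest of the pathway was followed in 5 lists, whose counts are read against the shares of all genes given above, 9.71% with CBPi in gMDSC and 8.56% in mMDSC; 1 of 8 or 2 of 15 is near those shares. Of the other MAP kinase phosphatases, 1 of 8 tested rose with CBPi in gMDSC, Dusp8, a phosphatase of JNK, at 5.51 to 16.2 CPM with CBPi and 0.0868 to 1.5 CPM with vehicle (edgeR adjusted p = 0.00552). In mMDSC 1 of 9 rose, Dusp14, at 0.961 to 3.92 CPM with CBPi and 0.0387 to 0.159 CPM with vehicle (edgeR adjusted p = 0.00122). Both rises rest on a very low vehicle level. Dusp8 also averaged higher with CBPi in mMDSC, at 5.23 against 2.53 CPM, but did not pass there (edgeR adjusted p = 0.0773). Dusp14 also averaged higher with CBPi in gMDSC, at 1.99 against 0.319 CPM. Of 15 other inhibitors of RAS and ERK signalling, 1 rose and 1 fell in each population, and they were Errfi1, which encodes an inhibitor of the EGF receptor, and Dok3, an adaptor gene. Errfi1 was at 118 to 267 CPM in CBPi gMDSC and 38.1 to 60.1 CPM in vehicle gMDSC, a log2 fold change of 1.78 ± 0.24 (SE; edgeR adjusted p = 0.000827), and its change in mMDSC was 1.05 ± 0.15 (SE; edgeR adjusted p = 0.00115). Dok3 fell by 0.87 in gMDSC and by 0.55 in mMDSC on the log2 scale (edgeR adjusted p = 0.0158 and 0.00196).

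Of the 26 genes of the RAS to ERK cascade itself, 1 rose in gMDSC, Map2k1, which encodes MEK1 (log2 fold change 1.03, edgeR adjusted p = 0.00679). In mMDSC Araf, a RAF kinase gene, rose by 0.45 and Rasgrp1, a RAS activator gene, fell by 1.36 on the log2 scale (edgeR adjusted p = 0.0136 and 0.00572). Of 20 tested genes of the JNK and p38 cascade, Mknk2 rose in gMDSC by 1.13 (edgeR adjusted p = 0.0194) and Mapkapk3 fell in mMDSC by 0.89 (edgeR adjusted p = 0.00279). Of the transcription factor and early genes downstream of ERK, 5 of 25 tested rose and 2 fell in gMDSC, with a median log2 fold change of 0.39. In mMDSC 5 of 23 rose and 2 fell, with a median of 0.62. Over all genes tested the medians were 0 and 0.01. The genes called included Fosl1 (3.20, adjusted p = 0.00116), Phlda1 (1.63, adjusted p = 0.00433) and Ier5 (0.95, adjusted p = 0.0187) in gMDSC by edgeR. In mMDSC they included Egr3 (4.23, adjusted p = 8.7e-05), Egr1 (1.55, adjusted p = 0.00154) and Elk3 (-0.65, adjusted p = 0.00404) by edgeR. Ccnd1, the gene of the cell cycle activator cyclin D1, fell in both, by 1.44 in gMDSC and 1.76 in mMDSC on the log2 scale (edgeR adjusted p = 0.00633 and 0.000769). For Egr3 the difference of the responses, gMDSC minus mMDSC, was -3.55 on the log2 scale (edgeR adjusted p = 0.0344). Egr3 was at 2.95 to 5.7 CPM in CBPi mMDSC and 0.106 to 0.352 CPM in vehicle mMDSC. Its change in mMDSC and this difference thus rest on a very low vehicle level. Some of these early genes, Egr1 among them, also stand in the dissociation stress list.

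Between the populations, 11 of the 26 cascade genes were higher and 4 lower in gMDSC in CBPi mice, and 10 were higher and 3 lower in vehicle mice, against 39.2% and 21.7% of all genes in either direction. Map3k8, the MEK kinase that acts downstream of Toll-like receptors, differed by 1.71 in CBPi mice and 1.00 in vehicle mice, and Rasgrp4, a myeloid RAS activator gene, by 1.48 in CBPi mice and 1.73 in vehicle mice (log2; edgeR adjusted p at most 0.000749 for all 4 values). Of the JNK and p38 list, 9 of 20 were higher and 3 lower in CBPi mice and 7 of 20 higher and 3 lower in vehicle mice. Mapk13, which encodes p38 delta, differed by 2.51 in CBPi mice and 3.17 in vehicle mice (log2; edgeR adjusted p = 2.29e-05 and 1.08e-05). Map3k5, the gene of the JNK and p38 activator ASK1, differed by 1.64 in CBPi mice and 1.53 in vehicle mice (log2; edgeR adjusted p = 0.00015 and 6.27e-05). Of the list of genes downstream of ERK, 12 of 24 were higher and 1 lower in CBPi mice and 10 of 22 higher and 1 lower in vehicle mice. Of the other phosphatases, 2 of 9 were higher and 2 lower in CBPi mice and 1 of 7 higher and 2 lower in vehicle mice, with Dusp3 at -1.60 and -1.52 and Dusp22 at -1.19 and -1.27 in CBPi and vehicle mice (log2; edgeR adjusted p at most 0.0121). Of the 15 other inhibitors, 5 were higher and 3 lower in CBPi mice and 3 higher and 1 lower in vehicle mice; Dok2, a myeloid adaptor gene, was lower in gMDSC by 1.81 in CBPi mice and by 2.13 in vehicle mice on the log2 scale.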

How the data were processed

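The deposited files gave, per library, a whole-number read count for each gene as the authors made it, with the gene's Entrez ID and a width in bases (another deposited value, close to coding length). Reads were aligned with GSNAP to GRCm38, per the submitters' processing notes; the counter, its annotation and strand setting are not stated there. Symbols and coordinates came from RefSeq (GRCm38.p6), overlapping genes from GENCODE. The main test was edgeR's quasi-likelihood test (edgeR 4.0.16, R 4.3.3), run per comparison after TMM scaling and a filterByExpr filter (at least 10 counts, total at least 15), with Benjamini-Hochberg adjustment over all genes tested; the scripts were tested on simulated data. Replicates numbered 1 to 10 are separate libraries; no labels tie them to separate mice, so the p-values reflect sample-to-sample spread only, which may be technical. No replicates agreed within sampling noise. Named genes were the 10 members, up to 4 genes of each list with the smallest adjusted p under 0.05, and the 2 genes most like each member. Alternatives were RLE scaling, no filter, DESeq2 1.42.0, 1 fit over all 4 groups, a replicate block and each library left out; thinning to 12372630 counts and the sets of 2 libraries left out were chosen after seeing the data. The members and lists were chosen with earlier results of these data known.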

Additional observations from a re-analysis of the deposited data

Results flagged for a closer look

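Of 40 group values checked (10 genes in 4 groups of 5), 2 held a library that stood apart, at a gap to its nearest neighbour above 0.71 of the group's range; chance flags about 1 in 20 such groups. Dusp6 in vehicle gMDSC 3 was at 253 CPM, with the other 4 libraries at 360 to 395 CPM. This library also had the highest macrophage and neutrophil marker sums of the 20, 75678 and 34535 CPM, and their part in the value was not tested. Spry1 in vehicle gMDSC 4 was at 5.55 CPM, with the other 4 libraries at 0 to 1.18 CPM.

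The CBPi response of Dusp4 differed between the populations by a test of the difference itself, with a log2 difference of 3.19 (gMDSC minus mMDSC; edgeR adjusted p = 0.0247). All 5 CBPi mMDSC libraries were below all 5 vehicle mMDSC libraries, and 4 of 5 CBPi gMDSC libraries were above all 5 vehicle gMDSC libraries. The call on the difference was lost without CBPi gMDSC 7 (edgeR adjusted p = 0.0578) and without CBPi gMDSC 6 and 7 (edgeR adjusted p = 0.143). The response in gMDSC alone did not pass (edgeR adjusted p = 0.0601).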

How the results depend on the processing

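Of 930 values of single genes under the alternatives, 864 kept their direction and their side of the threshold, 32 lost a call, 17 gained one and 17 changed sign. The cause of these changes was not tested. The number of the 10 genes called with CBPi in mMDSC was 2 and became 1 with no filter on low counts and 0 in 1 fit over all 4 groups (edgeR; 4 had an unadjusted p under 0.05 there, and DESeq2 called 3), and 1 to 3 on leaving out each library. In gMDSC it was 2 and became 4 with DESeq2, 5 in 1 fit over all 4 groups, 1 without CBPi gMDSC 6 and 7, and 1 to 3 on leaving out each library. For the difference of the responses it was 1, 0 without CBPi gMDSC 6 and 7 (edgeR; 2 with an unadjusted p under 0.05; 1 with DESeq2 on all libraries), and 0 to 1 on leaving out each library. Over all genes, the calls in mMDSC were 1020, against 1647 with DESeq2 and 639 in 1 fit over all 4 groups. In gMDSC they were 1135, against 1926 with DESeq2, 2182 in 1 fit over all 4 groups, 306 without CBPi gMDSC 6 and 7, and 587 to 1394 on leaving out each library (587 without CBPi gMDSC 7, 708 without CBPi gMDSC 6). For the difference they were 92, against 277 with DESeq2, 36 without CBPi gMDSC 6 and 7, and 34 to 111 on leaving out each library (34 without CBPi gMDSC 7, 57 without CBPi gMDSC 6, 47 without vehicle gMDSC 4, 53 without CBPi mMDSC 10, 58 without vehicle mMDSC 5).

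Whether a replicate number shared by gMDSC and mMDSC stands for the same mouse is not given. Same-numbered deviations had correlations of -0.03 to 0.17, over 0.1 in 2 of 10 pairs, and 1 pair matched its own number best. These values cannot decide the question, because different populations of the same mouse need not deviate alike. A replicate block left the numbers of the 10 genes called at 8 in vehicle mice, 6 in CBPi mice and 1 for the difference, and gave 52 calls over all genes for the difference.

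The values that changed sign had no call. On leaving out each library, log2 values ran from -0.05 to 0.29 for Dusp10 and -0.22 to 0.05 for Dusp16 in mMDSC, from -0.05 to 0.28 for Spred1, -0.15 to 0.01 for Dusp2 and -1.13 to 0.55 for Spry1 in gMDSC, from -0.04 to 0.25 for Dusp1 and -1.66 to 0.14 for Spry1 in the difference, and from -1.2 to 0.68 for Spry1 between populations in vehicle mice, where a replicate block gave -0.43. Without CBPi gMDSC 6 and 7, Dusp6 in gMDSC was -0.08 and Dusp1 in the difference -0.22, which was -0.01 without vehicle gMDSC 3 and 5. Thinning every library to the smallest total kept the number called in each comparison within 1.5 times.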
